A study of Mus musculus with 6 samples.

Results

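The collagen genes of the mouse were followed in sciatic nerves of mice with the histone deacetylases HDAC1 and HDAC2 deleted in Schwann cells, the glial cells of peripheral nerve. A gene was taken as a collagen gene when its only symbol in the annotation of the Affymetrix Mouse Genome 430 2.0 array had the form Col, number, a, number, as in Col1a1. This gave 42 genes with 82 probe sets among 18194 named genes, and the probe set with the highest mean over the 6 arrays stood for each gene. Of the 42, 39 were at a log2 value of 4 or more on at least 3 arrays and were tested, among 14550 tested genes. Col11a2, Col4a3 and Col6a5 were not. The double knockout (dKO) group held 3 samples labelled DhhCre+ HDAC1-2 dKO, with peripheral hypomyelination given as the disease state. The control group held 3 samples labelled DhhCre–, which the submitters call littermates. All 6 were sciatic nerves of pups of mixed strain on postnatal day 2, with the perineurium, the cellular sheath of the nerve, removed before RNA extraction. The Cre recombinase is driven by the desert hedgehog gene, which is active in the Schwann cell lineage. The labels call the deletion specific to Schwann cells and do not say whether other cells of the nerve recombined. The labels do not say whether the control mice carried the floxed alleles, nor how many nerves or pups went into a sample, and each p-value therefore reflects only how these samples vary, which may be technical.

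Collagens are secreted or membrane-bound proteins whose chains wind around each other into a helix, with a glycine at regular steps along each chain. The classes differ in what the helices build. Fibrillar collagens form the endoneurial fibrils between the axons. Type IV collagen forms the network of basement membranes, including the basal lamina that surrounds each Schwann cell and its axon. Type VI collagen forms beaded filaments, fibril-associated collagens decorate the surface of fibrils, multiplexins sit at the border of basement membranes, and transmembrane collagens stay anchored in the cell surface. Fibroblasts and Schwann cells both make collagens in nerve, and basal lamina assembly goes along with the step in which Schwann cells begin to ensheathe and myelinate axons.

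Of the 39 collagen genes tested, 8 were higher and 2 were lower in dKO nerves. The higher genes were Col25a1, Col9a1, Col18a1, Col4a4, Col6a3, Col6a1, Col24a1 and Col26a1, and the lower genes were Col27a1 and Col15a1. A call means an adjusted p under 0.05 in limma, with Benjamini-Hochberg adjustment over all 14550 genes, and the standard error (SE) of a log2 change comes from the same fit with n = 3 per group. The share of collagen genes called was 25.6%, against 22.0% of all genes tested, so collagens were called about as often as other genes. The share called higher was 20.5%, against 12.6% of all genes, and the share called lower was 5.13%, against 9.38% of all genes. The median log2 change, dKO minus control, was 0.15 over the collagen genes and 0.01 over all genes, and the collagen median lay between 0.10 and 0.23 with 1 array left out. The changes were above 0 for 25 collagen genes and below 0 for 13. Only 4 collagen genes (10.3%) changed by 2-fold or more in the fit, against 10.9% of all genes. The dKO and control values did not overlap for 18 collagen genes (46.2%), against 40.9% of all genes. Of these 18, 15 were higher and 3 lower in dKO, that is 38.5% and 7.69% of the collagen genes, against 22.6% and 18.4% of all genes.

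**Figure D1:**
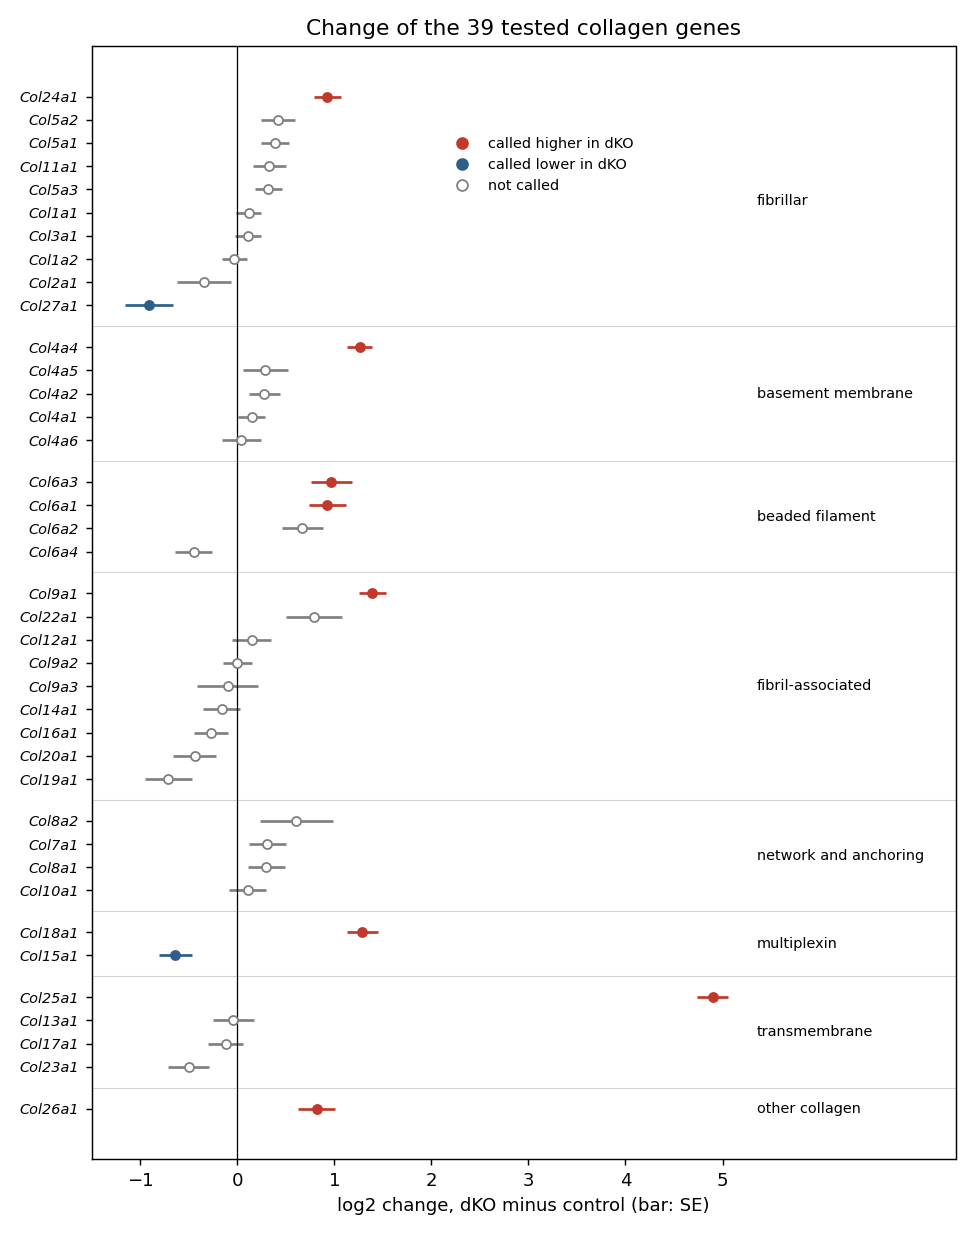
Log2 change of each of the 39 tested collagen genes, dKO minus control (horizontal axis), with its standard error, grouped by structural class. Filled points passed the test, 8 higher and 2 lower, and the point of Col25a1 at 4.90 stands apart from all others, which lie between -0.91 and 1.39.

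The log2 limit of 4 was a chosen cut and not a measured limit of detection, and it bears on some of these genes. Col24a1 and Col25a1 were under the log2 limit of 4 on all control arrays and were tested only because their dKO values were above it, so their presence among the tested genes depended on the difference. Over all genes, 63 were tested in this way. Col4a6 and Col6a4 were also under the limit on some arrays. The SE had a median of 0.19 over the collagen genes and 0.17 over all genes, and the number of arrays limits the precision. The targeted genes were lower in dKO, with 34.1% of the control level left for Hdac1 and 41.8% for Hdac2. The Hdac2 change was -1.26 for the probe set used and -0.71 with its probe sets averaged. The RNA came from whole nerve samples, in which fewer cells of a type and less RNA per cell cannot be told apart.

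The widest change was that of Col25a1, the gene of the transmembrane collagen XXV, which in mouse skeletal muscle is needed for motor innervation and which also occurs in amyloid plaques. Col25a1 had log2 values of 8.40, 8.47 and 8.76 on the dKO arrays, against 3.61, 3.83 and 3.48 on the control arrays. The groups were far apart, and all control values were under the limit. With control values set to the limit, the probe set that stood for Col25a1 was at least 23.3-fold higher in dKO (log2 change in the fit 4.90, SE 0.16, adjusted p = 7.36e-06). The other probe set of the gene had 5.75, 5.80 and 6.33 on the dKO arrays, against 5.43, 5.09 and 5.54 on the control arrays. Its groups did not overlap either, but its change of 0.61 (SE 0.20, adjusted p = 0.102 over all probe sets) was not called. With both probe sets averaged the change was 2.76. The size of the Col25a1 change therefore depends on the probe set.

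Promoter windows are shown for the 4 called collagen genes with the lowest adjusted p, of which Col25a1 had the lowest. The window is the 250 bases before the RefSeq start, at chr3:130180595-130180844 on the plus strand of GRCm38.p6, with matches to 4 motifs in capitals.
Col25a1: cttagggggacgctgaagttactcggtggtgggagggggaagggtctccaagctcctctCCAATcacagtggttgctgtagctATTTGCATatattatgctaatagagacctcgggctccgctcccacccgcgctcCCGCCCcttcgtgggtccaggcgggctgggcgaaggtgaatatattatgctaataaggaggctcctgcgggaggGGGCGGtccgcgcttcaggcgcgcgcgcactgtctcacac
The motifs searched on both strands were the TATA box with the letters TATAAA, the CCAAT box, the GC box with the letters GGGCGG and the octamer ATGCAAAT, a sequence bound by POU factors, and the octamer and the repeat named here were looked for after this window had been read. These 4 motifs occur in 12.4%, 33.8%, 32.7% and 1.6% of the 32851 windows of this length in the table. The Col25a1 window holds a CCAAT match that begins 191 bases before the start, an octamer match at 167, and GC box matches at 114 and 40. It also holds the same 16 bases, atatattatgctaata, at 161 and at 75 bases before the start, and the first copy overlaps the octamer match. It has 18 CpG dinucleotides, more than 78.3% of all windows. A match is a description of the letters and not a binding site.

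The other transmembrane collagens did not pass the test. Col13a1, a collagen of neuromuscular junctions and other adhesion sites, changed by -0.04 (SE 0.21, adjusted p = 0.907). Col17a1, the collagen of hemidesmosomes, changed by -0.12 (SE 0.18, adjusted p = 0.672). Col23a1 had 6.43, 6.49 and 5.95 on the dKO arrays, against 7.04, 6.84 and 6.48 on the control arrays, and its 3 probe sets had changes of -0.60 to -0.50. Those groups overlapped, and the change was not called (adjusted p = 0.127). Col25a1 was the only one of the 4 tested transmembrane collagens that was called in limma (25.0%, near the 22.0% of all genes called). There was 1 other, Col23a1, at an unadjusted p under 0.05.

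The multiplexins, collagens XV and XVIII, moved in opposite directions. Col18a1, whose product is a basement membrane proteoglycan and the source of endostatin, had 9.59, 9.51 and 9.78 on the dKO arrays, against 8.10, 8.42 and 8.48 on the control arrays. Every dKO value was more than 1 log2 unit above the highest control value, and the change was 1.29 (SE 0.16, adjusted p = 0.00105). Its other probe set was called too, with a change of 0.98. Col15a1, a collagen of the outer face of basement membranes that is needed for normal axon sorting in mouse nerve together with laminin, had 9.88, 9.84 and 9.71 on the dKO arrays, against 10.43, 10.74 and 10.18 on the control arrays. The groups did not overlap, and Col15a1 fell by 0.64 (SE 0.17, adjusted p = 0.0308). This call was lost when any array other than control 3 was left out (adjusted p up to 0.1), whereas Col18a1 was called in each of those fits (adjusted p up to 0.00544).

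Col18a1, shown by the same rule of lowest adjusted p, has a pair of RefSeq starts, with both windows on the minus strand of chromosome 10. They lie at chr10:77166531-77166780 and chr10:77113706-77113955.
Col18a1 first start: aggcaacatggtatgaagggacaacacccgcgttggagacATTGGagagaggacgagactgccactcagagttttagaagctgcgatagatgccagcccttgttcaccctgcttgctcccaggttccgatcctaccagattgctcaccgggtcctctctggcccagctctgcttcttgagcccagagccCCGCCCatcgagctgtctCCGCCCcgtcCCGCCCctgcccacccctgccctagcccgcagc
Col18a1 second start: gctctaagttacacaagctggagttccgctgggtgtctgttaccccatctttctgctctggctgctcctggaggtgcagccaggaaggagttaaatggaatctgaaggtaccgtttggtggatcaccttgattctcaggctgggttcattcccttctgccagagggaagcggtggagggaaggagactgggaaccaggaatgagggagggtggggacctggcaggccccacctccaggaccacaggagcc
The first window holds CCGCCC, the GC box on the other strand, at 61, 43 and 33 bases before the start, and ATTGG at 210, with 12 CpG. The second holds no match to the 4 motifs and 3 CpG. The files do not say which start was used in these nerves.

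Of 5 tested type IV collagens of basement membranes, 1, Col4a4, passed the test, a share near the 22.0% of all genes called. Col4a4 encodes a chain that elsewhere joins those of Col4a3 and Col4a5, for example in the kidney glomerulus. It had 7.64, 7.54 and 7.72 on the dKO arrays, against 6.40, 6.41 and 6.29 on the control arrays, and the arrays of each group lay close together. The change was 1.26 (SE 0.13, adjusted p = 0.000552), and its other 2 probe sets had changes of 1.70 and 0.66, of which the first was called. Col4a3, its direct neighbour in the RefSeq gene order, was under the limit on all 6 arrays with both probe sets, with 2.76 to 3.22 on the dKO arrays and 3.13 to 3.37 on the control arrays for the brighter one. Col4a1 and Col4a2, the chains of the common basement membrane network, changed by 0.15 (SE 0.14) and 0.28 (SE 0.16) and were not called (adjusted p = 0.5 and 0.259). Col4a1 was at 12.86, 12.76 and 12.65 on the dKO arrays, against 12.70, 12.65 and 12.48 on the control arrays, and the groups overlapped. Col4a5 changed by 0.29 (SE 0.23, adjusted p = 0.407), and Col4a6, near the limit on all arrays, by 0.04 (SE 0.20, adjusted p = 0.914).

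The Col4a4 promoter window, shown by the same rule of lowest adjusted p, lies at chr1:82586850-82587099 on the minus strand.
Col4a4: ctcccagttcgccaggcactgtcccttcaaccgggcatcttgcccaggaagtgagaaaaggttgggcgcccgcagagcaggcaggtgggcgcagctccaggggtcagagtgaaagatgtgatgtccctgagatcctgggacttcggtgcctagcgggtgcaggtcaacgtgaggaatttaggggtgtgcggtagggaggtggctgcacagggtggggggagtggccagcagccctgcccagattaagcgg
It holds none of the 4 motifs and 10 CpG, more than in 62.2% of all windows.

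Of 9 tested fibril-associated collagens, 1 was called (11.1%), against 22.0% of all genes. Col9a1 encodes a chain of collagen IX, best known from the surface of cartilage fibrils, where it joins the chains of Col9a2 and Col9a3. Col9a1 had 10.17, 9.95 and 10.18 on the dKO arrays, against 8.80, 8.76 and 8.56 on the control arrays. All dKO arrays were more than 1 log2 unit above all control arrays, with a change of 1.39 (SE 0.14, adjusted p = 0.000548), and the other probe set was also called (0.62, SE 0.16, adjusted p = 0.0414 over all probe sets). Col9a2 changed by 0.00 (SE 0.15, adjusted p = 1.0). Col9a3 had 8.93, 9.19 and 8.85 on the dKO arrays, against 8.28, 9.53 and 9.44 on the control arrays, and its change of -0.10 (SE 0.31, adjusted p = 0.857) became -0.50 without control 1. Of the 3 type IX chains, Col9a1 alone was called. Of 8 listed cartilage and bone markers, 3 were tested and 0 were called by limma, with 0 at an unadjusted p under 0.05, and all 3 had changes below 0. Their mean log2 level was 4.55 to 4.64 on the dKO arrays and 4.75 to 4.81 on the control arrays. Acan, which encodes the cartilage proteoglycan aggrecan, was at 5.29, 5.30 and 5.42 on the dKO arrays, against 5.75, 5.46 and 5.50 on the control arrays. Matn1, Matn3, Comp and Sp7 were under the limit on 5 or all of the 6 arrays. The cartilage collagen gene Col2a1, which is not on that list, was well above the limit. It had 8.55, 8.72 and 8.88 on the dKO arrays, against 8.41, 9.16 and 9.59 on the control arrays.

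Collagen IX has a long and a short form of the Col9a1 chain, made from separate starts. Col9a1 is shown by the same rule of lowest adjusted p, with both windows on the plus strand of chromosome 1. They lie at chr1:24177360-24177609 and chr1:24194953-24195202.
Col9a1 first start: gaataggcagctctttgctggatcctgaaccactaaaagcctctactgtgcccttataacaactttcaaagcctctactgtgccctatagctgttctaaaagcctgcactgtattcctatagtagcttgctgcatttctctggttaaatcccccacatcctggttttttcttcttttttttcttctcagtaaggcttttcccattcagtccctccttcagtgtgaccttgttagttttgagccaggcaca
Col9a1 second start: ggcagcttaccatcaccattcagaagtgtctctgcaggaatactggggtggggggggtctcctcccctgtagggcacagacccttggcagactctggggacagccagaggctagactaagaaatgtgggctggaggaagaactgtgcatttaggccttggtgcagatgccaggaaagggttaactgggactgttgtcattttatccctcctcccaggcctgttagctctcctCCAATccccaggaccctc
Both windows hold 0 CpG. The second holds a CCAAT match 18 bases before the start, and the first holds no match to the 4 motifs. Which form each probe set reads was not examined here.

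The other 8 fibril-associated collagens changed by -0.71 to 0.79 and did not pass. Col22a1, a collagen of muscle and tendon junctions, had 5.70, 5.59 and 6.10 on the dKO arrays, against 4.33, 5.33 and 5.36 on the control arrays (change 0.79, SE 0.29, adjusted p = 0.0902). The groups did not overlap, but control 1 stood below the other controls, and the change was 0.45 without it. Col19a1, the direct neighbour of Col9a1, had 5.22, 5.08 and 4.81 on the dKO arrays, against 5.21, 6.03 and 6.01 on the control arrays (change -0.71, adjusted p = 0.0704). Without control 1 it was called lower (change -0.98, adjusted p = 0.00963). Col12a1, Col14a1 and Col16a1, which encode collagens of the fibril surface, changed by 0.15, -0.16 and -0.27 with overlapping groups. Col20a1 changed by -0.44 (adjusted p = 0.206) and was called lower without dKO 3 (adjusted p = 0.0457).

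**Figure D2:**
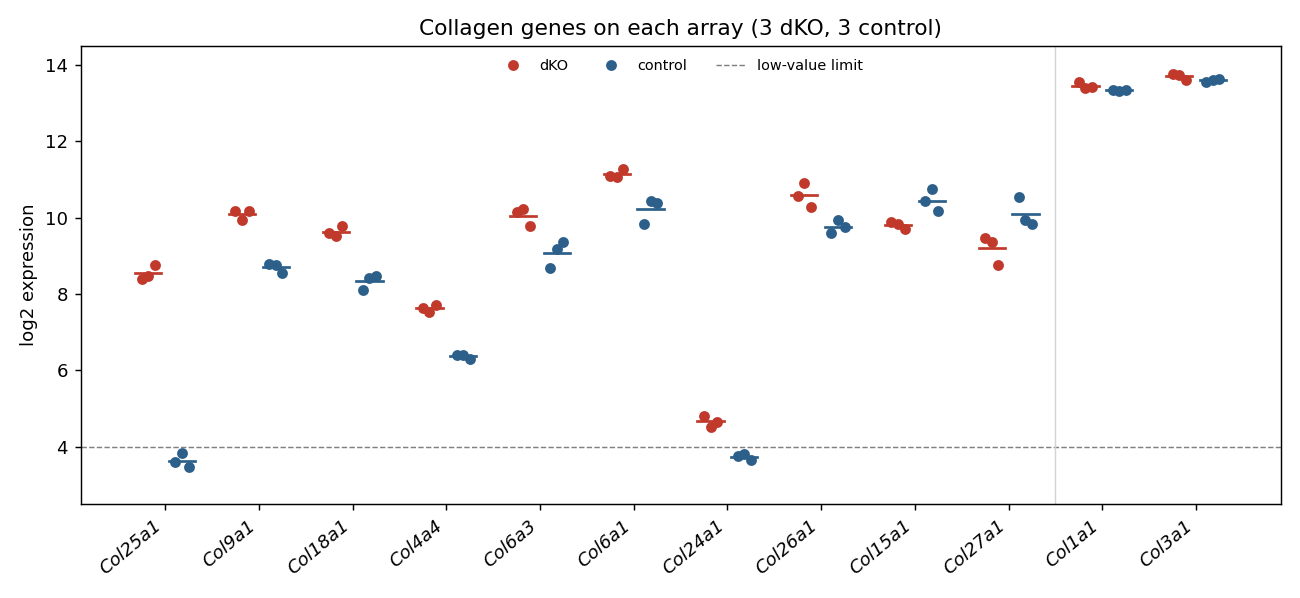
Log2 expression (vertical axis) on each array for the 10 collagen genes called and for Col1a1 and Col3a1, with dKO points left of control points and a bar at each group's mean. The dashed line is the limit of 4, and all control values of Col25a1 and Col24a1 lie under it.

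The collagens that make up most endoneurial fibrils did not pass the test. Col1a1, which encodes a chain of type I collagen, had 13.56, 13.39 and 13.43 on the dKO arrays, against 13.34, 13.33 and 13.34 on the control arrays. The groups did not overlap, but the gap was small (change 0.12, SE 0.13, adjusted p = 0.541). Col3a1, which encodes type III collagen, had 13.77, 13.73 and 13.62 on the dKO arrays, against 13.55, 13.61 and 13.64 on the control arrays (change 0.11, SE 0.13, adjusted p = 0.602). Col1a2, the partner of Col1a1, changed by -0.03 (SE 0.13, adjusted p = 0.903). Whether such bright probe sets respond in full to a further increase was not tested. The less bright probe sets of Col1a1 and Col3a1 changed by 0.27 and 0.36 and were not called either.

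Of the other fibrillar collagens, Col24a1 was higher and Col27a1 lower in dKO. Col24a1, a minor fibrillar collagen known from developing bone, had 4.81, 4.53 and 4.66 on the dKO arrays, against 3.75, 3.80 and 3.66 on the control arrays. All dKO values lay just above the limit and all control values just under it, so Col24a1 was at least 1.59-fold higher in dKO (adjusted p = 0.00245). Col27a1, a fibrillar collagen of cartilage, had 9.48, 9.37 and 8.75 on the dKO arrays, against 10.54, 9.94 and 9.84 on the control arrays. The groups did not overlap, and Col27a1 fell by 0.91 (SE 0.25, adjusted p = 0.0353), a call lost without dKO 2, dKO 3, control 1 or control 2 (adjusted p up to 0.0972). Its other probe set had a change of -0.71 and was called over all probe sets (adjusted p = 0.0245), where the first was not (0.0586). The type V genes Col5a1, Col5a2 and Col5a3, whose products sit in the core of type I fibrils and limit their width, had changes of 0.39, 0.42 and 0.32. None of these passed (adjusted p = 0.0827, 0.128 and 0.144). All dKO values lay above all control values for each, as they did for 22.6% of all genes. Col5a1 was called with an intensity trend in the fit (adjusted p = 0.0231). With each array centred on its median, the adjusted p values of the type V genes were 0.141, 0.189 and 0.247. Col11a1, a relative of the type V genes, changed by 0.33 (adjusted p = 0.197), and its dimmer probe set by 0.72 (adjusted p = 0.0334 over all probe sets). Col2a1, the main cartilage collagen, changed by -0.34 (SE 0.28, adjusted p = 0.439) and by -0.66 without control 1.

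The chains of collagen VI, which links cells to the matrix around them, were higher in dKO for 2 of 4 tested genes, against 12.6% of all genes. Col6a1 had 11.10, 11.07 and 11.27 on the dKO arrays, against 9.83, 10.44 and 10.39 on the control arrays (change 0.93, SE 0.19, adjusted p = 0.0102). Col6a3 had 10.14, 10.22 and 9.79 on the dKO arrays, against 8.68, 9.19 and 9.37 on the control arrays (change 0.97, SE 0.21, adjusted p = 0.0134). Neither gene's groups overlapped, and control 1 was the lowest array for both. The call of Col6a3 was lost without dKO 2 (adjusted p = 0.0528). Col6a2, which completes the common type VI helix, had 10.39, 10.32 and 11.07 on the dKO arrays, against 9.88, 10.07 and 9.81 on the control arrays. Its change of 0.67 (SE 0.21, adjusted p = 0.0584) was not called, and it was called with its probe sets averaged (0.70, adjusted p = 0.0171). Col6a4, a relative of Col6a3, changed by -0.45 (SE 0.19, adjusted p = 0.135), with 3.95 to 4.47 on the dKO arrays and 4.6 to 4.96 on the control arrays. Col6a1 and Col6a2 are direct neighbours in the RefSeq gene order, and Col18a1 follows with 2 protein-coding genes between.

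Collagens of the network and anchoring class gave no call in limma, against 22.0% of all genes, with 0 of 4 at an unadjusted p under 0.05. Col8a1 and Col8a2, which encode the network collagen VIII of vessels and cornea, changed by 0.30 (SE 0.19) and 0.61 (SE 0.38). Col8a2 had 7.06, 6.97 and 7.54 on the dKO arrays, against 5.67, 7.32 and 6.77 on the control arrays, and its change was 0.15 without control 1. Col7a1, the anchoring fibril collagen, and Col10a1, the collagen of hypertrophic cartilage, changed by 0.31 (SE 0.19) and 0.11 (SE 0.19). Col26a1, a secreted collagen first found in testis and ovary, had 10.58, 10.90 and 10.29 on the dKO arrays, against 9.60, 9.94 and 9.76 on the control arrays. Its groups did not overlap, and the change of 0.82 (SE 0.19, adjusted p = 0.0160) lost its call without dKO 2 (adjusted p = 0.0543) or control 1 (0.0525). The second, dim probe set of Col26a1 gave 0.04. Averaging the pair gave 0.43 (adjusted p = 0.121).

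**Figure D3:**
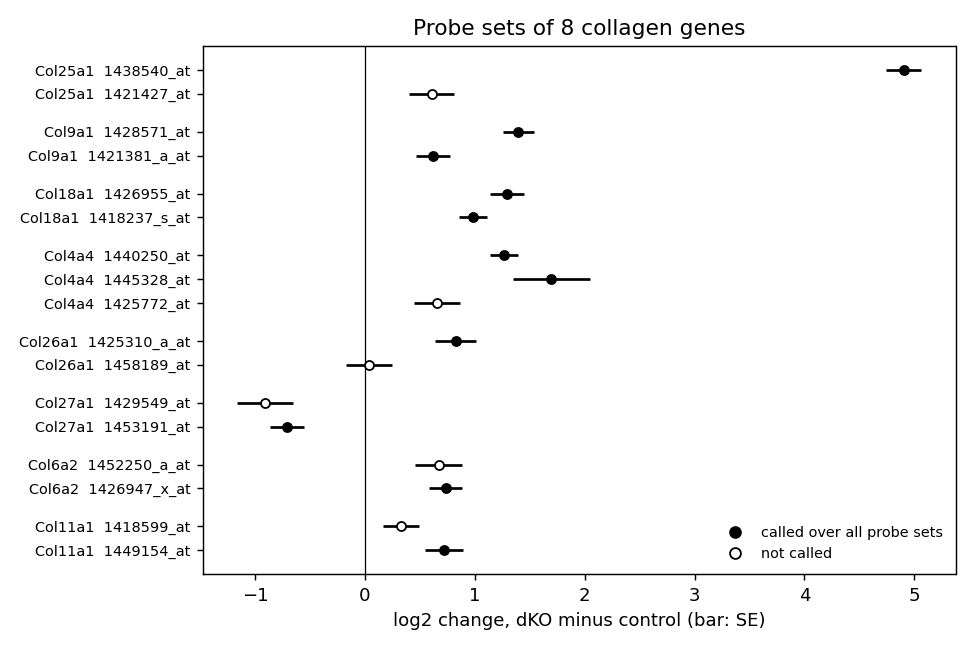
Log2 change with standard error (horizontal axis) of every probe set of 8 collagen genes, 6 of them called and Col6a2 and Col11a1 not called. Filled points passed an adjusted p of 0.05 over all probe sets, and the 2 probe sets of Col25a1, at 4.90 and 0.61, differ most.

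Of the 10 called collagen genes, 6 had more than 1 probe set, and for 0 of them was any probe set called with the other sign. Col9a1, Col18a1 and Col4a4 had more than 1 probe set called in the same direction. The genes Col6a1, Col6a3, Col24a1 and Col15a1 rest on 1 probe set each.

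Because collagen helices combine chains of one type, the change of each chain was set against that of its partners. Among the 24 pairs of tested chains of one type, the difference between the chains did not overlap between the groups for 10. For single genes the groups did not overlap for 40.9% of all genes, and no share was worked out for pairs of other genes. Most of the 10 pairs hold Col4a4, Col6a4 or Col9a1, so they are not separate observations. The exact two-sided permutation test over arrays gave p = 0.1 for each of these 10, and 0.24 after Benjamini-Hochberg adjustment over the 24 pairs. Since 0.1 is the smallest p that 3 against 3 arrays allow, no pair could have passed 0.05, and the differences are given as descriptions. The change of Col9a1 exceeded that of Col9a2 by 1.39 (SE 0.19) and that of Col9a3 by 1.49 (SE 0.48). The change of Col4a4 exceeded that of Col4a5 by 0.97 (SE 0.30). That of Col4a1 lay below that of Col4a4, with a difference of -1.12 (SE 0.10). The change of Col6a4 lay below those of the other type VI chains, by 1.37 (SE 0.34) for Col6a1, 1.12 (SE 0.24) for Col6a2 and 1.42 (SE 0.42) for Col6a3, and these are 3 of the 10 pairs. Col6a1 and Col6a3 differed by -0.04 (SE 0.21), Col4a1 and Col4a2 by -0.13 (SE 0.08), and Col5a1 and Col5a2 by -0.03 (SE 0.15), and these groups overlapped. The difference of Col1a1 minus Col1a2 was 0.15 (SE 0.04) higher in dKO.

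Over the collagen genes the spread among the 3 control arrays was often the wider one. The control standard deviation was the larger one for 24 of 39 collagen genes (61.5%), against 44.0% of all genes. Control 1 was the lowest control array for 23 collagen genes (59.0%), against 36.4% of all genes. Among the dKO arrays, dKO 2 was the lowest for 19 (48.7%), against 32.9% of all genes. For 7 of the 10 called genes, dKO 3 lay farthest from the control mean. The lower genes Col15a1 and Col27a1 are among these 7. The share of all genes with dKO 3 farthest was not worked out. However, dKO 3 was the highest dKO array for 7282 of the 14550 genes tested. Its median over the genes tested was 7.64, against 7.505 for dKO 1 and 7.522 for dKO 2. The count of 7 is therefore not given as a trait of collagen genes. These are descriptions of 3 arrays a group, and the calls that rest on single arrays are named with each gene.

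The genes that modify, process and cross-link collagen were higher in dKO for 7 of 28 tested genes, of 32 listed, and lower for 0, with 1 lower at an unadjusted p under 0.05. That is 25.0% higher, against 12.6% of all genes, and the median log2 change was 0.18. The largest change was that of Loxl1, a lysyl oxidase relative that cross-links elastic fibres, with 7.85, 7.68 and 8.14 on the dKO arrays, against 4.33, 6.02 and 6.0 on the control arrays (2.44, SE 0.42, adjusted p = 0.00477). P4ha3, a subunit of prolyl hydroxylase, rose by 1.55 (SE 0.33), Lox, the collagen cross-linking lysyl oxidase, by 1.17 (SE 0.25), and Plod3, a lysyl hydroxylase that also glycosylates collagen, by 0.88 (SE 0.16). Adamts3, a procollagen peptidase whose control values were all under the limit, was at least 1.49-fold higher (adjusted p = 0.0242). It was tested only because its dKO values passed the limit, so its place among the 7 depended on the difference. Colgalt1, a collagen galactosyltransferase, and Pcolce, the procollagen C-proteinase enhancer, rose by 0.67 and 0.66. The calls of Adamts3 and Colgalt1 were lost with some array left out (adjusted p up to 0.0724 and 0.107), and that of Pcolce whichever of the 6 arrays was left out (up to 0.0881). The list had 4 calls when control 1 or control 3 was left out. Outside the genes called, and picked after their values were seen, the chaperone gene Serpinh1 and the peptidyl-prolyl isomerase gene Ppib changed by -0.08 (SE 0.15) and 0.02 (SE 0.16).

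Of 18 tested genes of collagen breakdown and collagen receptors, of 22 listed, 8 were higher (44.4%) and 3 lower (16.7%), against 12.6% and 9.38% of all genes, with a median of 0.05. The receptor gene Adgrg1, whose product binds type III collagen, had 5.06, 4.68 and 4.40 on the dKO arrays, against 6.84, 7.05 and 7.16 on the control arrays. It fell by 2.30 (SE 0.19, adjusted p = 0.000232), the widest change of the list, with the groups far apart. Mmp8, a neutrophil collagenase, had 3.66, 3.33 and 3.48 on the dKO arrays, all under the limit, against 4.69, 4.78 and 5.21 on the control arrays. Counted at the limit, its dKO level was at most 0.539 of the control level (adjusted p = 0.00127). It was tested only because its control values passed the limit, so its place among the 3 lower genes depended on the difference, and with a limit of 6 it was not tested and 2 were lower. Lair1, an inhibitory collagen receptor of leukocytes, fell by 0.91 (SE 0.18). Itga1, the alpha chain of a collagen-binding integrin, rose by 1.27 (SE 0.24), Timp1, an inhibitor of matrix metalloproteinases, by 1.46 (SE 0.32), and Fap, a fibroblast protease, by 1.08 (SE 0.26). The collagenolytic protease gene Ctsk and the collagen receptor gene Ddr1 rose by 0.90 and 0.88. The calls of Timp1, Fap, Ctsk and Ddr1 were lost with some array left out (adjusted p up to 0.0504, 0.0617, 0.133 and 0.0995), and that of Ddr1 also with a replicate block (0.0785) and with its probe sets averaged (change 0.43, adjusted p = 0.0647). Adgrg6, whose product binds type IV collagen and is needed for myelination, changed by -0.59 (SE 0.25, adjusted p = 0.144). The count of higher genes dropped to 4 when dKO 2 or dKO 3 was left out, and to 5 for control 1.

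Of 19 tested genes whose products bind collagen fibrils or lie beside them, of 20 listed, 14 were higher (73.7%), against 12.6% of all genes, and 0 were lower, with 1 lower, Ogn, at an unadjusted p under 0.05. The median log2 change was 0.86. Dpt, which encodes dermatopontin, a small protein that speeds fibril formation, had 7.65, 6.42 and 6.87 on the dKO arrays, against 3.10, 3.52 and 4.24 on the control arrays. With the control values under the limit set to it, Dpt was 7.46-fold higher (adjusted p = 0.000635). The leucine-rich proteoglycan genes Aspn, Fmod, Kera and Bgn rose by 2.01 (SE 0.43), 1.87 (SE 0.45), 1.42 (SE 0.37) and 1.13 (SE 0.22). Fbln1, Thbs2 and Fn1, which encode fibulin-1, thrombospondin-2 and fibronectin, rose by 1.48 (SE 0.27), 1.08 (SE 0.16) and 1.07 (SE 0.16). The calls of Fmod and Kera were lost with some array left out (adjusted p up to 0.0681 and 0.0897). The number called was 9 without dKO 2 and 8 without control 2. Dpt, Dcn and Lum of this list are also on the fibroblast marker list.

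**Figure D4:**
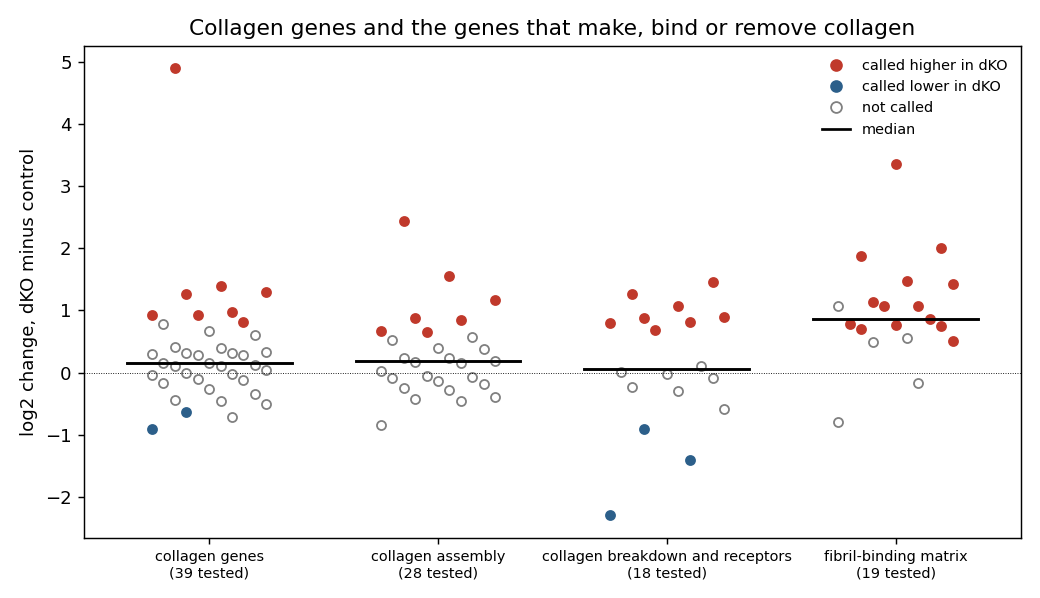
Log2 change, dKO minus control (vertical axis), of each tested gene in 4 lists, with the median of each list as a bar. Medians are 0.15 for the collagen genes, 0.18 for assembly, 0.05 for breakdown and receptors and 0.86 for fibril-binding matrix genes.

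Markers of other cells of the nerve differed between the groups too, and their part in the collagen changes was not tested. Each count here is to be read against the 12.6% of all genes called higher and the 9.38% called lower. Of 9 tested nerve fibroblast markers, 6 were higher in dKO (66.7%) and 0 lower, with 0 lower at an unadjusted p under 0.05, and the mean log2 level of the list was 8.65 to 8.90 on the dKO arrays and 7.24 to 8.0 on the control arrays. Dpt, Dcn and Lum, also on the fibril-binding list, are among these 6. The fibroblast receptor gene Pdgfra rose by 0.78 (SE 0.15, adjusted p = 0.00717). Pi16, Clec3b and Osr2 changed by 0.51, 0.00 and 0.53 and were not called (adjusted p = 0.167, 0.994 and 0.3). Of 7 perineurial markers, 3 were higher (42.9%) and 1 lower (14.3%, near the share of all genes), and their mean level was 7.86 to 8.04 on the dKO arrays and 6.95 to 7.49 on the control arrays. The perineurium had been removed before RNA extraction, and how much of it remained in each sample was not tested. The controls differed among themselves, with list means of 6.95, 7.21 and 7.49 on controls 1, 2 and 3. Of 7 pericyte markers, 4 were higher (57.1%), with a mean level of 8.74 to 9.07 on the dKO arrays and 8.15 to 8.21 on the control arrays. Of 8 macrophage markers, 2 were called, both higher (25.0%), against 12.6% of all genes called higher and 22.0% called in either direction. Their mean level was 7.52 to 8.34 on the dKO arrays and 7.18 to 7.4 on the control arrays. Of 8 endothelial markers, 0 were called by limma, with 3 higher at an unadjusted p under 0.05 (7.32 to 7.75 on the dKO arrays and 6.78 to 7.29 on the control arrays). Skeletal muscle markers were near the limit (4.66 to 4.78 on the dKO arrays and 4.49 to 4.89 on the control arrays), with Myog and Myl1 under it on all 6 arrays and 0 of 6 called (0 at an unadjusted p under 0.05). Of 7 tested pan-Schwann markers, of 9 listed, 1 was higher (14.3%, about the share of all genes) and 2 lower (28.6%), and their mean level was 8.76 to 9.21 on the dKO arrays and 9.03 to 9.28 on the control arrays.

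**Figure D5:**
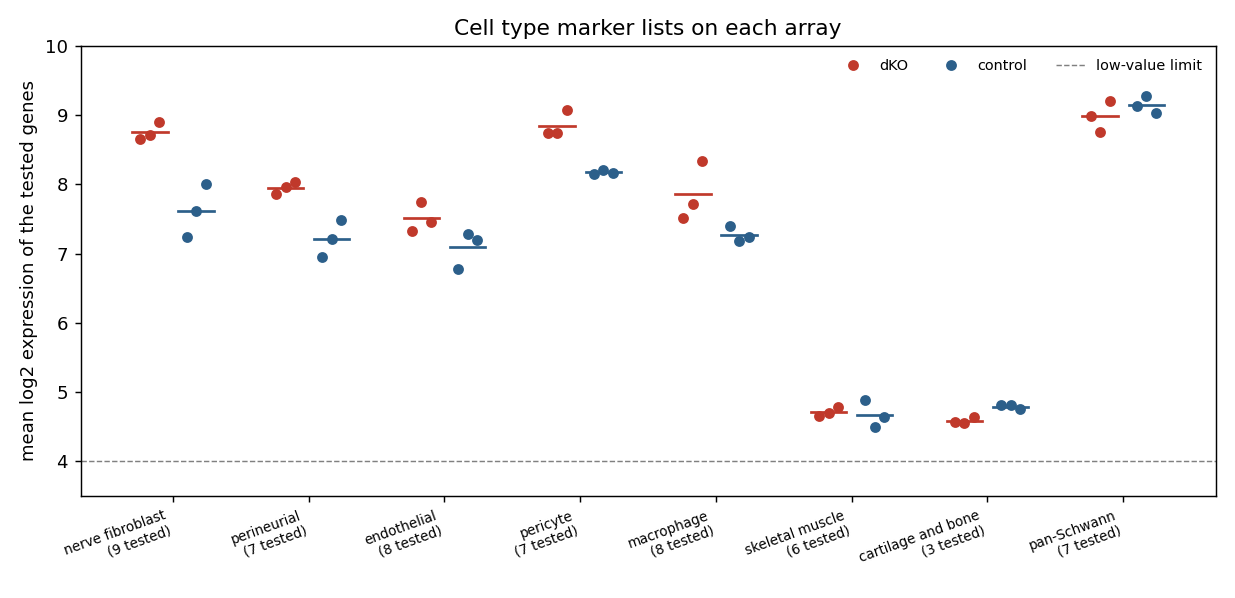
Mean log2 expression (vertical axis) of the tested genes of 8 cell type marker lists on each array, dKO points left of control points, with a bar at each group's mean. The fibroblast, perineurial, endothelial, pericyte and macrophage lists lie higher on every dKO array than on every control array, and the muscle and cartilage lists lie near the limit of 4.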

How the data were processed

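Total RNA of 6 sciatic nerve samples was hybridised to Mouse Genome 430 2.0 arrays. The deposited values are log2 signals, made by the authors with GCOS 1.2 and GCRMA per the submitters' processing notes, with settings not given in the sources used here. Every array had a median of 5.77 and, within 0.01 at each rank, the same distribution. Of 45101 probe sets, 34958 had 1 gene symbol in the platform annotation, 932 had several and 9211 were unnamed here. Symbols were updated through RefSeq GRCm38.p6 (204 gene numbers did not match). The probe set with the highest mean stood for a gene, and genes at 4 or more on at least 3 arrays were tested by a linear model with moderated variances (limma 3.58.1, R 4.3.3), without covariates, with Benjamini-Hochberg adjustment over 14550 genes and a threshold of 0.05. The procedure was tested on simulated data. Groups came from the sample titles, with 3 samples each. SE is the standard error of a log2 change in that fit. No 2 arrays held identical values. The replicate numbers were checked for pairing: same-numbered arrays correlated at 0.04, -0.12 and -0.24 in their deviations from the group means, so the numbers were not taken as pairs.

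Array values are given for the called collagen genes and for Col25a1, Col1a1 and Col3a1, and up to 8 called genes with the largest change are named per pathway list. Any further gene or array value was chosen after its values were seen. The collagen genes and all lists were chosen with earlier results of these data known. The alternatives tried were no limit, a limit of 6, the mean of a gene's probe sets, centring each array, an intensity trend, a replicate block and leaving out each array. Promoter windows came from a RefSeq table that held 33 of the 42 genes.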

Additional observations from a re-analysis of the deposited data

How the results depend on the processing

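Of the results followed, 0 changed direction while past the threshold under the alternatives run. With all arrays, 3198 genes were called, against 2178 to 2916 with 1 array left out. The number of collagen genes called higher was 6 to 8 with 1 array left out, and the number called lower was 0 to 2. With averaged probe sets 9 were called higher, losing Col26a1 and gaining Col11a1 and Col6a2. With the intensity trend 10 were, gaining Col5a1 (adjusted p = 0.0231) and Col6a2 (0.0387), and with a limit of 6 the number stayed at 8, with Col6a2 in and Col24a1 out. The median collagen change of 0.15 was 0.29 with a limit of 6, 0.24 with the probe sets of a gene averaged, 0.07 with each array centred on its median, which moved the median of all genes to -0.07, and 0.10 to 0.23 with 1 array left out. With 1 array left out, 4 to 6 assembly genes, 4 to 7 breakdown and receptor genes and 8 to 13 fibril-binding genes were called higher. Among the fibril-binding genes 0 were called lower with the settings of the report, against 1 (Ogn) with a limit of 6, 1 with averaged probe sets, 1 with centred arrays, 1 with the intensity trend and 0 to 1 with 1 array left out. With a replicate block all 10 collagen calls remained, 2557 genes were called, and among the 64 genes followed 1 call was lost, that of Ddr1. Of the 35 called genes followed, 22 were called with each array left out in turn, among them 6 collagen genes: Col25a1, Col9a1, Col18a1, Col4a4, Col6a1 and Col24a1. The limit was applied once, with all 6 arrays, and not again after an array was left out. Col25a1 and Col24a1 reached it only on the 3 dKO arrays, and Mmp8 only on the 3 control arrays. Under the same rule these genes would not have been tested without any of those arrays, so their calls there still depend on the omitted array. The causes of these shifts were not tested. Values under the limit of 4 give bounds only, and 3 arrays a group limit the precision.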
